A study of Mus musculus with 16 samples.

Results

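The genes described here encode the contractile filaments of skeletal muscle, the structures that hold them, the calcium machinery that switches them on and the enzymes that feed them. All probe sets whose platform symbol was one of 42 such genes were taken, which gave 76 probe sets out of 45037 that were not array controls, and 42 of the 18193 genes named on the array. Each gene is represented by the probe set of highest mean, and 40 of the 42 lay above the filter on low signal. Sln and Tnni1 lay under it, and their values come from a fit without the filter. Female C57BL/6 mice had been ovariectomized, and RNA was taken from 5 mm at the distal end of each left femur, with 1 array per mouse and 4 mice in each of 4 groups. WT-OVX mice were wild type and received vehicle, and WT-E2-4hr mice were wild type and received estrogen 4 h before harvest. ERaKO-OVX mice lacked estrogen receptor alpha in osteoclasts and, per the design text, received vehicle. ERaKO-E2-4hr mice had the same deletion and the same estrogen schedule. All mice had lost their ovaries, and the deletion is described as specific to osteoclasts. The labels name no Cre driver, age, estrogen compound or dose. The arrays of each group carry the numbers 1 to 4 in their titles, and replicates 1 and 2 were compared with replicates 3 and 4 over all groups. The labels do not say what these numbers stand for.

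Skeletal muscle shortens when myosin heads of the thick filament pull on actin of the thin filament. A nerve impulse opens the calcium release channel of the sarcoplasmic reticulum, calcium binds troponin C, and tropomyosin moves off the myosin sites on actin. Fast and slow fibres use different members of the same families, so that most steps have a fast and a slow paralogue. A mouse femur is covered by mostly fast muscle, which inserts close to the bone, while bone and marrow themselves contain no skeletal muscle fibres.

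RefSeq promoter windows, the 250 bases before each annotated start, were at hand for 32 of the 42 genes, with 40 windows in all. The windows of 4 genes are shown: Acta1 and Myh4 as abundant filament genes with a CArG box, which serum response factor binds, Myl3 as a slow-fibre gene with such a box, and Mlip as the gene that did not move with the others. Capitals mark every match, on either strand, to an E-box (CANNTG, which myogenic factors such as MyoD bind), a MEF2 site, a CArG box or a TATA box (TATAAA). In GRCm38.p6 the windows are chr8:123894776-123895025 on the minus strand for Acta1, chr11:67237562-67237811 on the plus strand for Myh4, chr9:110763428-110763677 on the plus strand for Myl3 and chr9:77347871-77348120 on the minus strand for Mlip.
Acta1: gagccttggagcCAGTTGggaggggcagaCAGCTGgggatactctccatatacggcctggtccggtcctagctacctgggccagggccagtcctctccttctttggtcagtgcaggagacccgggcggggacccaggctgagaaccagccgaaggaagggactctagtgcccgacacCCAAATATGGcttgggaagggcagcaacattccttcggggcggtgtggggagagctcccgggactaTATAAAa
Myh4: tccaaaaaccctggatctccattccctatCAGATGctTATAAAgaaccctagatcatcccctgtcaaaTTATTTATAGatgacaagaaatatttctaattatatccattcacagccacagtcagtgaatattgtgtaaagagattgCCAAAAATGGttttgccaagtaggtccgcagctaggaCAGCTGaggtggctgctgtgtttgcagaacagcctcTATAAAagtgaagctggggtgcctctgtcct
Myl3: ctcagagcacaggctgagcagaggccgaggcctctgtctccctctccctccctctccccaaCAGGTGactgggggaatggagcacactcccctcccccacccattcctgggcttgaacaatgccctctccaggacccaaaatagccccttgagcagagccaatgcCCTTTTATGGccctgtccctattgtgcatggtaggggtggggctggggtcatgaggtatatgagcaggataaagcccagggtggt
Mlip: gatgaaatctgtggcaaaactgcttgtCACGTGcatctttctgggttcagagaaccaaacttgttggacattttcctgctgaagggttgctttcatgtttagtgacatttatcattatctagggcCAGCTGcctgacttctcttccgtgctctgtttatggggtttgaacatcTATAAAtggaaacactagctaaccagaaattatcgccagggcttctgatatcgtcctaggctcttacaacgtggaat
An E-box stood in 34 of the 40 windows (85.0%), against 66.2% of 32851 windows of all genes. A MEF2 site stood in 5 windows (12.5%, against 2.92% of all), those of Ttn, Pgam2, Myh1, Myh4 and Pvalb. A CArG box stood in 5 windows (12.5%, against 1.47%), of Acta1, Myh4, Myl3 and, in a pair of windows, Ldb3. TATAAA stood in 8 windows (20%, against 12.4%), and a MEF2 site can overlap it. Of 9 fast-fibre genes with a window, 7 had an E-box, 3 a MEF2 site and 1 a CArG box, and of 7 slow-fibre genes 7 had an E-box, 0 a MEF2 site and 1 a CArG box. These matches describe letters and are no sign of binding.

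The deposited intensities had a trimmed mean of 500 on every array, and the median signal lay between 153 and 217. The 76 muscle probe sets held 0.468% to 3.47% of all signal on replicates 1 and 2 (median 1.05%, 8 arrays) and 0.0545% to 0.230% on replicates 3 and 4 (median 0.115%, 8 arrays). The probe set for 18S ribosomal RNA read 15614 to 30651 against 842 to 9158, and the ratio of the 3′ to the 5′ beta-actin probe set, a sign of RNA length, was 1.24 to 3.53 against 1.17 to 1.25. Spike-in signal was highest, at 35480, 23182 and 19873, on 3 arrays of replicates 1 and 2, which also had the highest beta-actin ratios of 3.53, 2.44 and 2.07: WT-OVX replicate 2, WT-E2-4hr replicate 2 and ERaKO-E2-4hr replicate 1. As a check of the tissue, Col1a1 (type I collagen) read 29882 to 37644 against 26331 to 29633, and Ctsk (cathepsin K of osteoclasts) read 3295 to 8327 against 7226 to 13852. The part of RNA quality and array chemistry in the results below was not tested.

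**Figure D1:**
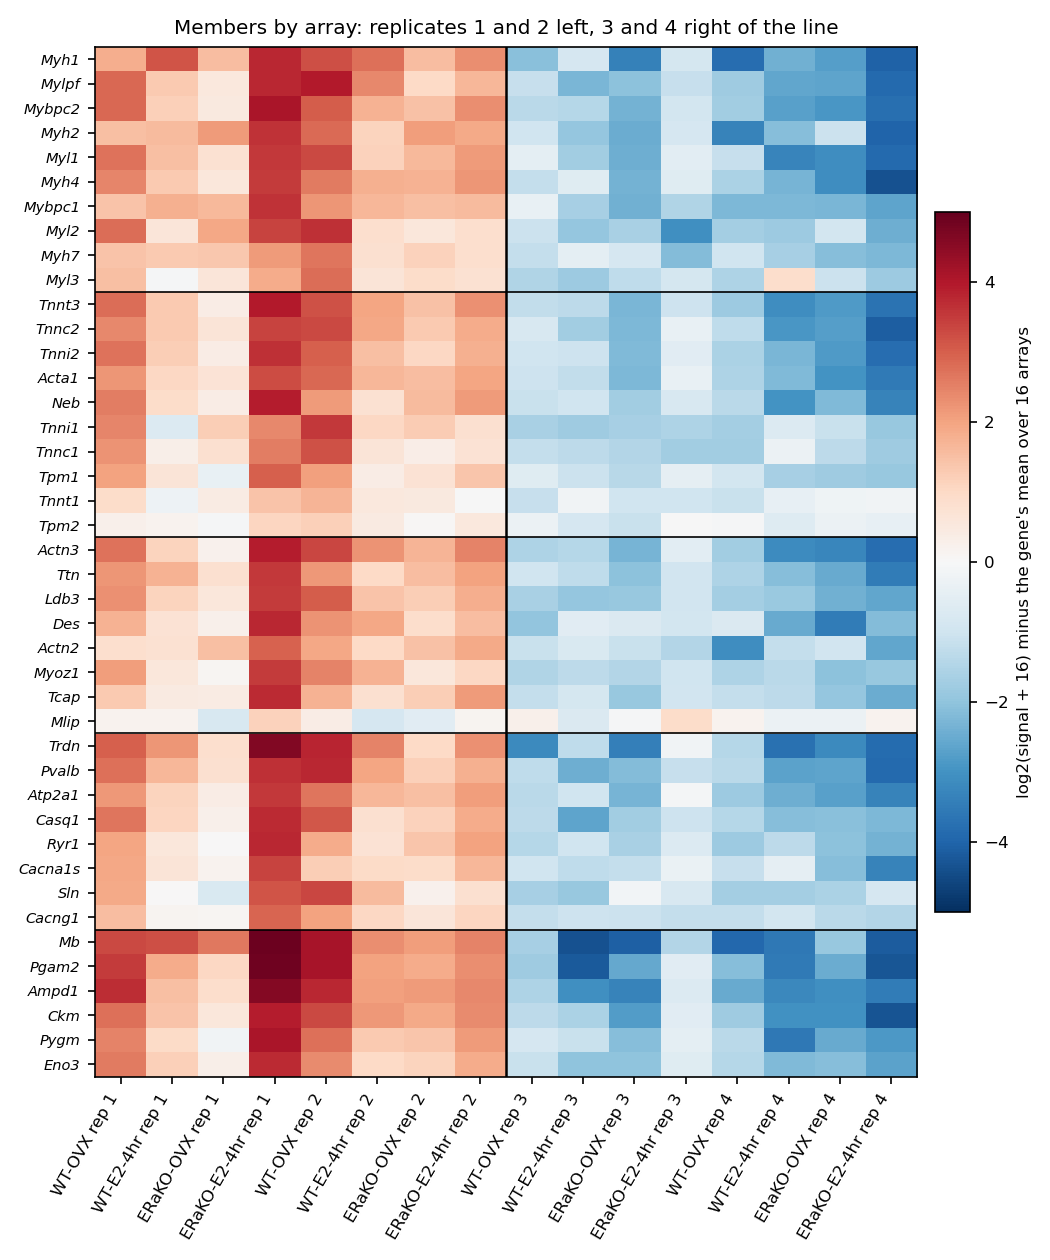
Each row is 1 of the 42 genes and each column 1 of the 16 arrays, with colour for log2(signal + 16) minus the gene's mean over all arrays. Replicates 1 and 2 of the 4 groups stand on the left and replicates 3 and 4 on the right. Nearly all genes are high on the left and low on the right, ERaKO-E2-4hr replicate 1 was the highest array for 32 genes, ERaKO-E2-4hr replicate 4 the lowest for 30, and Mlip shows no such split.

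Nearly all of these genes were far lower on replicates 3 and 4 than on replicates 1 and 2, in every role of the muscle cell. Of the 40 tested, 39 were lower and 0 higher (limma with 1 mean per group and replicate set as a term, adjusted p under 0.05), where 9.01% of 12735 genes were lower and 8.93% higher. The median difference was −3.74 on the scale of log2(signal + 16), beside 0.03 over all tested genes. On 36 of the 42 genes every array of replicates 3 and 4 lay below every array of replicates 1 and 2, which held for 2.21% of tested genes. Of 131 genes that were more than 4-fold lower (1.03% of those tested), 37 were from this set and 35 were other muscle genes of the lists given below. The split was known from earlier results of these data, so these tests describe a known difference. In whole tissue, fewer muscle fibres and less RNA per fibre cannot be told apart.

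**Figure D2:**
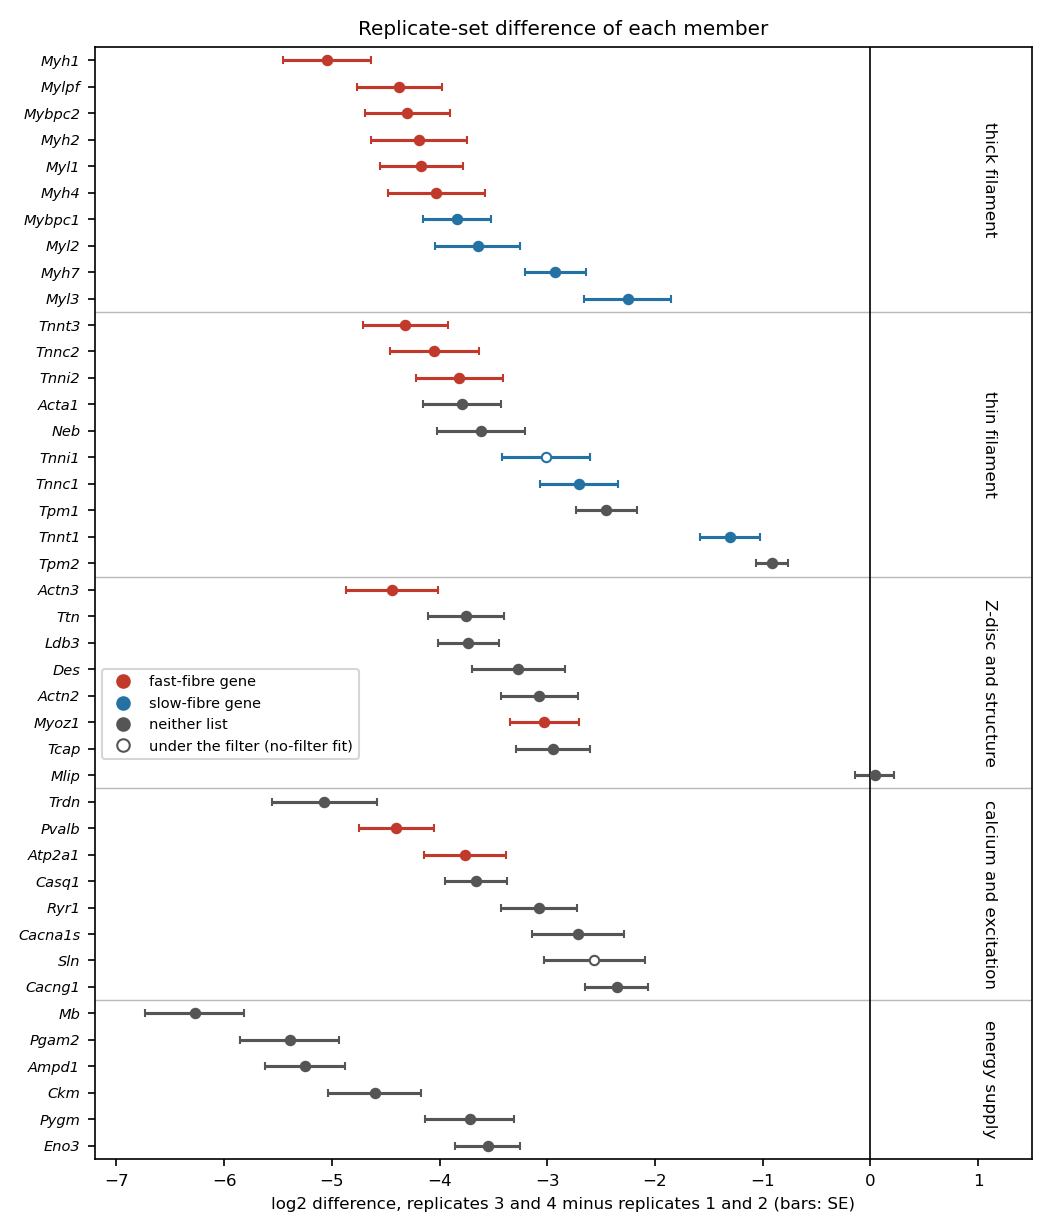
Each point is 1 gene, placed by its log2 difference of replicates 3 and 4 minus replicates 1 and 2, with the bar for its standard error, and grouped by role. Fast-fibre genes are red, slow-fibre genes blue, others grey, and the open points are Sln and Tnni1, which lay under the filter. Mb lies lowest at −6.27 and Mlip alone lies at 0.04.

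The thick filament, built from myosin heavy chains, their light chains and myosin binding protein C, had 10 of 10 genes lower, with a median of −4.10. In the values that follow the 4 numbers of a group are its replicates 1 to 4, in deposited signal. Myh4 read 37076, 41650, 3047 and 2267 in WT-OVX, 16930, 23406, 4563 and 1371 in WT-E2-4hr, 10352, 22983, 1325 and 778 in ERaKO-OVX and 78407, 32304, 4572 and 323 in ERaKO-E2-4hr. Myh4 is the heavy chain of the fastest fibres, its arrays did not overlap between the sets, and it fell by 4.03 ± 0.45 on the log2 scale (adjusted p = 1.36e-05), 16.3-fold. Myh7 read 707, 1718, 102 and 119.7 in WT-OVX, 653, 458, 178 and 69.9 in WT-E2-4hr, 676, 590.2, 135 and 46.7 in ERaKO-OVX and 1175, 467, 43.4 and 41.5 in ERaKO-E2-4hr. This slow heavy chain, shared with heart, was 7.60-fold lower, −2.93 ± 0.28 (adjusted p = 2.78e-06), and 5 of the 8 arrays of replicates 3 and 4 read under 109.1, the lowest mean kept by the filter. Myh1 and Myh2, the heavy chains of the other fast fibre types, differed by −5.05 ± 0.41 (adjusted p = 7.18e-07) and −4.19 ± 0.45 (adjusted p = 8.07e-06). The highest arrays of Myh1 and Myh2 on replicates 3 and 4 were 1129.8 and 296, and the lowest on replicates 1 and 2 were 5881 and 1185.

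Light chains sit on the neck of the myosin head. Mylpf read 39542, 84114, 2386 and 1562 in WT-OVX, 13215, 28193, 1082 and 881 in WT-E2-4hr, 7717, 10764, 1286 and 859 in ERaKO-OVX and 72992, 16890, 2391 and 350.3 in ERaKO-E2-4hr. The fast regulatory light chain Mylpf was higher on replicates 1 and 2 in every group, and differed by −4.37 ± 0.40 (adjusted p = 1.55e-06). Myl2 read 3842, 6963, 250.2 and 155 in WT-OVX, 831, 985, 129 and 142 in WT-E2-4hr, 2097, 809, 163 and 279 in ERaKO-OVX and 5729.7, 976, 49.7 and 87.1 in ERaKO-E2-4hr. Its slow and ventricular counterpart Myl2 showed the same order of sets, with its highest array in WT-OVX, and differed by −3.65 ± 0.39 (adjusted p = 9.13e-06). Myl1 read 32845, 48968, 3497 and 2247 in WT-OVX, 14054, 10936, 1460.1 and 485 in WT-E2-4hr, 8417, 15209, 907 and 557 in ERaKO-OVX and 57911, 21646, 3444 and 325 in ERaKO-E2-4hr. The fast essential light chain Myl1 had no overlap between sets and was 17.98-fold lower, −4.17 ± 0.39 (adjusted p = 1.94e-06). Myl3 read 851, 2077, 92.1 and 89.2 in WT-OVX, 274, 457, 69.2 and 545 in WT-E2-4hr, 443, 562, 109 and 127 in ERaKO-OVX and 1076, 498, 149 and 70.7 in ERaKO-E2-4hr. The sets overlapped for the slow essential light chain Myl3, whose WT-E2-4hr replicate 4 was above 4 arrays of replicates 1 and 2, and its difference was −2.25 ± 0.40 (adjusted p = 0.00133). Within wild-type or estrogen arrays alone the Myl3 difference did not pass (−2.21 and −1.70, limma adjusted p = 0.0904 and 0.195).

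Myosin binding protein C spans the thick filament and tunes the reach of the heads. Mybpc2 read 11684, 12883, 613 and 463 in WT-OVX, 3611, 5212, 574 and 226 in WT-E2-4hr, 2199, 4376, 290.2 and 195 in ERaKO-OVX and 27206, 7959.5, 817 and 101 in ERaKO-E2-4hr. This fast form differed by −4.30 ± 0.39 (adjusted p = 1.55e-06). Mybpc1 read 1321, 2298, 374 and 88.9 in WT-OVX, 1685, 1561, 142 and 91.1 in WT-E2-4hr, 1541, 1416, 79.5 and 87.4 in ERaKO-OVX and 6092, 1489, 160.0 and 65.7 in ERaKO-E2-4hr. The slow form differed by −3.84 ± 0.31 (adjusted p = 8.08e-07), the lowest value among the slow genes, with no overlap between sets and 5 of 8 arrays of replicates 3 and 4 under 109.1.

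On the thin filament 9 of 9 tested genes were lower, with a median of −3.61. Acta1 read 34268, 55416, 3653 and 2548 in WT-OVX, 15208, 23770, 3172 and 1595 in WT-E2-4hr, 12030, 21752, 1551 and 936 in ERaKO-OVX and 71278, 29151, 5859 and 636 in ERaKO-E2-4hr. Skeletal alpha-actin was highest on ERaKO-E2-4hr replicate 1 and lowest on ERaKO-E2-4hr replicate 4, so that both extremes fell in 1 group, and it was 13.9-fold lower, −3.79 ± 0.36 (adjusted p = 2.72e-06). Tnnc2 read 38381, 72549, 4172 and 2985 in WT-OVX, 17998, 28063, 2171 and 956 in WT-E2-4hr, 11309, 18195, 1534 and 1051 in ERaKO-OVX and 76193, 26630, 5655 and 403 in ERaKO-E2-4hr. Fast troponin C, the calcium sensor, differed by −4.05 ± 0.41 (adjusted p = 4.89e-06) without overlap. Tnnc1 read 2435, 4598, 205 and 138 in WT-OVX, 607, 784, 190.4 and 404 in WT-E2-4hr, 884, 629.7, 167 and 190.4 in ERaKO-OVX and 2996, 815, 135 and 134 in ERaKO-E2-4hr. Slow troponin C, shared with heart, differed by −2.70 ± 0.36 (adjusted p = 8.79e-05).

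Troponin I holds the filament off at rest. Tnni2 read 36319, 43477, 2733 and 1804 in WT-OVX, 12710, 15386, 2681 and 1095 in WT-E2-4hr, 7041, 11280, 1186 and 762 in ERaKO-OVX and 68119, 18975, 3731 and 379 in ERaKO-E2-4hr. The fast form was lower in replicates 3 and 4 of every group, −3.81 ± 0.40 (adjusted p = 7.98e-06). Tnni1 read 629.8, 1389, 22.9 and 20.4 in WT-OVX, 59.1, 226, 18.6 and 59.2 in WT-E2-4hr, 262, 272, 22.00 and 38.99 in ERaKO-OVX and 625, 193, 24.96 and 16.1 in ERaKO-E2-4hr. Tnni1, the slow form, was under the filter, read under 109.1 on all 8 arrays of replicates 3 and 4, and differed by −3.01 ± 0.41 in the fit without a filter. Troponin T ties the complex to tropomyosin. Tnnt3 read 28088, 37244, 1747 and 1143 in WT-OVX, 10021, 15899, 1657 and 457 in WT-E2-4hr, 5295, 11161, 834 and 563 in ERaKO-OVX and 63663, 19823, 1957 and 302 in ERaKO-E2-4hr. Fast Tnnt3 was 19.95-fold lower, −4.32 ± 0.39 (adjusted p = 1.59e-06), with no overlap. Tnnt1 read 739, 1274, 165 and 167 in WT-OVX, 313, 558, 338 and 284 in WT-E2-4hr, 512, 548, 183 and 327 in ERaKO-OVX and 1066, 373, 182 and 338 in ERaKO-E2-4hr. The slow form Tnnt1 was 2.47-fold lower, −1.30 ± 0.27 (adjusted p = 0.00446), its sets overlapped, and all its arrays read above 109.1. It did not pass within wild-type, knockout or estrogen arrays alone (−1.43, −1.18 and −0.85, limma adjusted p = 0.0675, 0.0968 and 0.277). Of the rest, nebulin, the ruler of the thin filament (Neb), differed by −3.61 ± 0.41, and the tropomyosins Tpm1 and Tpm2 by −2.45 ± 0.28 and −0.91 ± 0.15. Both tropomyosin genes also make forms used in other cells, and Tpm2 did not pass within knockout or vehicle arrays alone (−0.86 and −0.80, limma adjusted p = 0.0614 and 0.0550).

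Genes of the Z-disc and the elastic and intermediate filaments were lower in 7 of 8 cases, with a median of −3.17. Des read 1844, 2614, 126 and 328 in WT-OVX, 923, 2147, 367 and 82.3 in WT-E2-4hr, 646, 1024, 321 and 33.2 in ERaKO-OVX and 7586, 1635, 282 and 110.4 in ERaKO-E2-4hr. Desmin, the intermediate filament that links neighbouring Z-discs, differed by −3.27 ± 0.43 (adjusted p = 8.13e-05) without overlap. Actn3, the actinin of fast fibres, differed by −4.44 ± 0.43, Actn2 of all fibres by −3.07 ± 0.36, and titin (Ttn), the spring of the sarcomere, by −3.75 ± 0.35. Actn2 read under 109.1 on 6 of the 8 arrays of replicates 3 and 4. Values were −3.73 ± 0.28 for Ldb3, −3.03 ± 0.32 for Myoz1 and −2.95 ± 0.34 for Tcap, which are Z-disc proteins. The exception was Mlip, which encodes a protein that binds lamin. Mlip read 755, 866, 782 and 736 in WT-OVX, 755, 359, 396 and 537 in WT-E2-4hr, 373, 436, 635 and 537 in ERaKO-OVX and 1485, 727, 1251 and 752 in ERaKO-E2-4hr. Its sets overlapped throughout, and its difference was 0.04 ± 0.18 (adjusted p = 0.908), which quantile normalization or the mean of probe sets turned to −0.020 or −0.22.

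Calcium genes were lower in 7 of 7 tested cases, with a median of −3.66. Atp2a1 read 24918, 35910, 2216 and 1572 in WT-OVX, 12172, 17517, 2761 and 1026 in WT-E2-4hr, 7259, 15714, 1099 and 831 in ERaKO-OVX and 64208, 23821, 5261 and 545 in ERaKO-E2-4hr. This pump, which returns calcium to the sarcoplasmic reticulum of fast fibres, differed by −3.77 ± 0.38 (adjusted p = 4.89e-06). Ryr1 read 2953, 2665, 265 and 195 in WT-OVX, 1107, 1226, 357 and 289.8 in WT-E2-4hr, 743, 1954, 228 and 164 in ERaKO-OVX and 10155, 2977, 447 and 130.0 in ERaKO-E2-4hr. The calcium release channel differed by −3.07 ± 0.35 (adjusted p = 1.74e-05), and neither gene's sets overlapped. Sln read 415, 1141, 20.9 and 19.2 in WT-OVX, 100.4, 326, 15.3 and 19.8 in WT-E2-4hr, 52.7, 119, 89.8 and 22.7 in ERaKO-OVX and 989.9, 186, 50.8 and 47.6 in ERaKO-E2-4hr. Sarcolipin, an inhibitor of the pump, was under the filter with all 8 arrays of replicates 3 and 4 under 109.1, overlapped between sets, and differed by −2.56 ± 0.47 in the fit without a filter. Triadin (Trdn), which anchors the release complex, differed by −5.07 ± 0.49 (adjusted p = 2.72e-06), with a median of 70.1 on replicates 3 and 4 and 5 of those 8 arrays under 109.1. The buffers parvalbumin (Pvalb, in the cytosol) and calsequestrin (Casq1, in the store) differed by −4.40 ± 0.35 and −3.66 ± 0.29, and the voltage sensor subunits Cacna1s and Cacng1 by −2.72 ± 0.43 and −2.35 ± 0.29. Cacna1s did not pass within estrogen arrays alone (−2.998, limma adjusted p = 0.0653). Both Cacna1s and Cacng1 read under 109.1 on 6 of the 8 arrays of replicates 3 and 4.

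Genes of energy supply had the lowest median, −4.93, and 6 of 6 were lower. Ckm read 29451, 43152, 1744 and 1242 in WT-OVX, 11797, 19522, 1437 and 515 in WT-E2-4hr, 6383, 16129, 607 and 516 in ERaKO-OVX and 65893, 22124, 2939.8 and 201 in ERaKO-E2-4hr. Muscle creatine kinase, which rebuilds ATP from phosphocreatine, was 24.3-fold lower, −4.60 ± 0.43 (adjusted p = 2.00e-06), with no overlap. Mb read 5542, 9840, 161 and 21.2 in WT-OVX, 5229, 2793, 11.5 and 31.4 in WT-E2-4hr, 3508, 2369.9, 17.1 and 136 in ERaKO-OVX and 16557, 3092, 186 and 15.1 in ERaKO-E2-4hr. Myoglobin, the oxygen store, had the largest difference of all 42, −6.27 ± 0.46 (adjusted p = 3.96e-07), a 77.4-fold change on the log2(signal + 16) scale, and 5 of 8 arrays of replicates 3 and 4 read under 109.1. Pgam2 of glycolysis and Ampd1, the muscle AMP deaminase, followed with −5.39 ± 0.46 (adjusted p = 8.92e-07) and −5.25 ± 0.37 (adjusted p = 3.35e-07). Pgam2 read under 109.1 on 5 of 8 arrays of replicates 3 and 4, and Ampd1 on 7, with medians of 104 and 21.9. The median of the energy genes thus rests in part on low signal. Eno3 of glycolysis and Pygm, the glycogen phosphorylase of muscle, differed by −3.55 ± 0.30 and −3.72 ± 0.41.

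Of the 42 genes, 25 had 1 probe set and 17 had several, and all probe sets were also read apart. Of 63 tested probe sets, 57 were lower, beside 7.97% of 26676 probe sets, and 1 was higher, beside 11.4%. The higher one belonged to Tpm1 (0.71 ± 0.13, adjusted p = 0.00165), while other Tpm1 probe sets gave −2.45, −4.23 and, not passing, 0.41. Tpm2 gave −0.91, −1.58, −3.74 and −2.15, Myl3 gave −2.25, −4.04 and −5.31, and Mybpc1 gave −3.84, −1.45 and −2.06. The 5 that did not pass were that Tpm1 probe set, that of Mlip (0.04), and 1 further probe set each of Des (−0.28), Ldb3 (−0.47) and Myh4 (−1.31, adjusted p = 0.0888). Probe sets with a shared target can pick up close relatives, and the myosin heavy chains are nearly identical over long stretches, so their values are uncertain as to which gene was read. A pair of further probe sets shared by Myh7 and Myh6 was not used.

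Fast-fibre genes had a median of −4.19, with 13 of 13 lower, and slow-fibre genes −2.81, with 6 of 6 lower. These medians use 1 probe set per gene. Other tested probe sets of slow genes gave −4.04 and −5.31 for Myl3 (−2.25 here) and −1.45 and −2.06 for Mybpc1 (−3.84 here). Those of fast genes gave −1.31 for Myh4 (−4.03 here), −4.67 for Tnni2 (−3.81 here) and −5.52 for Myh1 (−5.05 here). Of the slow genes on replicates 3 and 4, Tnni1 read under 109.1 on 8 of 8 arrays, Myh7 and Mybpc1 on 5, Myl3 on 4, Myl2 on 2, and Tnnt1 and Tnnc1 on 0. The part of low signal in the gap between the lists was not tested. The log2 ratio of fast to slow paralogue was also taken within each array for 7 pairs, and its set difference tested by exact two-sided permutation within groups (all arrangements, adjusted over 7 pairs). For troponin T, Tnnt3 over Tnnt1, the ratio was 5.22, 4.85, 4.93, 4.79, 3.33, 4.31, 5.88 and 5.67 on replicates 1 and 2 (2 arrays of each group in the order given) and 3.28, 2.67, 2.24, 0.66, 2.10, 0.75, 3.32 and −0.16 on replicates 3 and 4. These did not overlap, by a narrow margin (3.33 against 3.32). The ratio was lower by 3.02 on replicates 3 and 4 (exact permutation p = 0.00154, the smallest this test can give, adjusted p = 0.0108). Tnnt1 was lower on ERaKO-E2-4hr replicate 3 (182) than on ERaKO-E2-4hr replicate 4 (338). The summed signal of the 42 genes was 61242 and 11816 on these arrays. How far Tnnt1 followed the muscle signal on replicates 3 and 4 was not tested. For the essential light chains, Myl1 over Myl3, the ratio was 5.25, 4.55, 5.60, 4.53, 4.20, 4.72, 5.73 and 5.40 on replicates 1 and 2 and 5.02, 4.43, 4.11, −0.16, 2.88, 2.00, 4.39 and 1.98 on replicates 3 and 4, a difference of −1.91 (exact permutation p = 0.00463, adjusted p = 0.0162), with overlap between sets. This result did not keep its call when WT-E2-4hr replicate 1, WT-E2-4hr replicate 2, ERaKO-E2-4hr replicate 1 or ERaKO-E2-4hr replicate 2 was left out (−1.78, −2.05, −1.87 and −1.96, with adjusted exact permutation p = 0.101, 0.0828, 0.0648 and 0.0594). It was also lost under quantile normalization (−1.65, adjusted exact permutation p = 0.0756), the mean of probe sets (−0.30, 0.671) and with the 3 arrays of highest spike-in signal left out (−2.09, 0.173). The other 5 pairs did not pass: Tnnc2 over Tnnc1 −1.35 (adjusted exact permutation p = 0.0675), Myh4 over Myh7 −1.10 (0.0504), Tnni2 over Tnni1 −0.81 (0.214), Mylpf over Myl2 −0.73 (0.214) and Mybpc2 over Mybpc1 −0.46 (0.259). Without ERaKO-E2-4hr replicate 3 Tnnc2 over Tnnc1, Myh4 over Myh7 and Mylpf over Myl2 passed, with adjusted exact permutation p = 0.0189, 0.0108 and 0.0216, and Myh4 over Myh7 also without WT-OVX replicate 2 (0.0252) or ERaKO-OVX replicate 1 (0.0396). With a pseudocount of 64 in place of 16, 4 of these 5 passed: Tnnc2 over Tnnc1 −1.55, Myh4 over Myh7 −1.56, Tnni2 over Tnni1 −1.61 and Mylpf over Myl2 −1.03 (adjusted exact permutation p = 0.0194, 0.0036, 0.0054 and 0.0486). A larger pseudocount shrinks the fall of low genes more. On replicates 3 and 4 Tnni1 read 16.1 to 59.2, Myh7 41.5 to 178, Myl2 49.7 to 279 and Tnnc1 134 to 404. The part of this shrinkage in the calls at 64 was not tested. With the mean of probe sets Mybpc2 over Mybpc1 passed at −1.85 (adjusted exact permutation p = 0.0054), and Myh4 over Myh7 turned to 0.26. Between estrogen and vehicle no pair passed (adjusted exact permutation p from 0.659 to 0.980). Within the fast heavy chains, Myh1 minus Myh4 ranged from −3.97 on WT-OVX replicate 4 to 0.10 on WT-E2-4hr replicate 1.

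**Figure D3:**
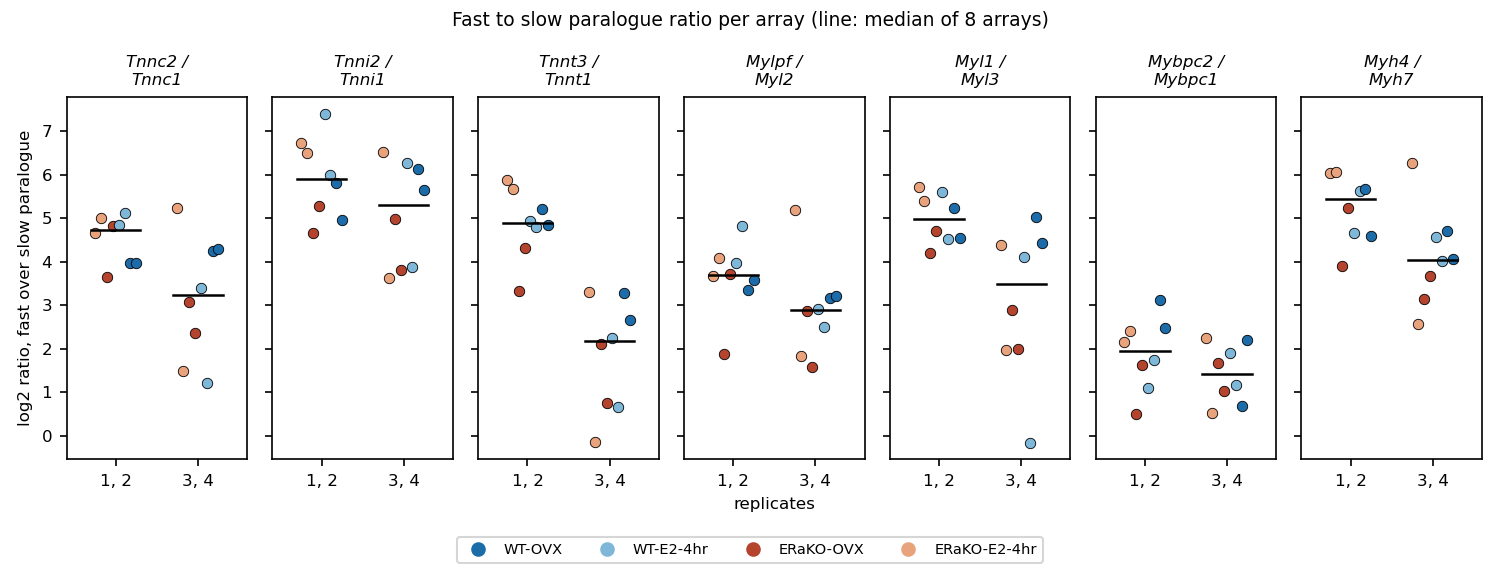
Each panel is 1 pair of fast and slow paralogues, with the log2 ratio of fast to slow for every array and the line at the median of 8 arrays, for replicates 1 and 2 and for replicates 3 and 4. The ratio is a position within each pair and is not compared between pairs. The sets do not overlap for Tnnt3 over Tnnt1, and do for the other 6 pairs.

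The median set difference was far below 0 in each of the 4 groups, with fewer genes past the threshold in WT-E2-4hr and ERaKO-OVX. In ERaKO-E2-4hr 37 of the 40 tested genes were lower, with a median of −4.72, beside 3.25% of all genes. In WT-OVX 36 were lower, median −3.86, beside 2.33%. In WT-E2-4hr 18 were lower, median −3.09, beside 0.73%, and in ERaKO-OVX 8 were lower, median −3.06, beside 0.212% (limma with 8 means, adjusted p under 0.05). No change of the set difference with treatment was detected: 0 genes passed adjustment (0% of all genes), and 0 had an unadjusted p under 0.05, where 3.92% of all genes did. For genotype 0 passed (0%), and 1 had an unadjusted p under 0.05, where 4.41% did. That gene was Tcap (−1.45 ± 0.49, limma adjusted p = 0.976). The median differences were −0.34 for treatment and −0.25 for genotype.

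**Figure D4:**
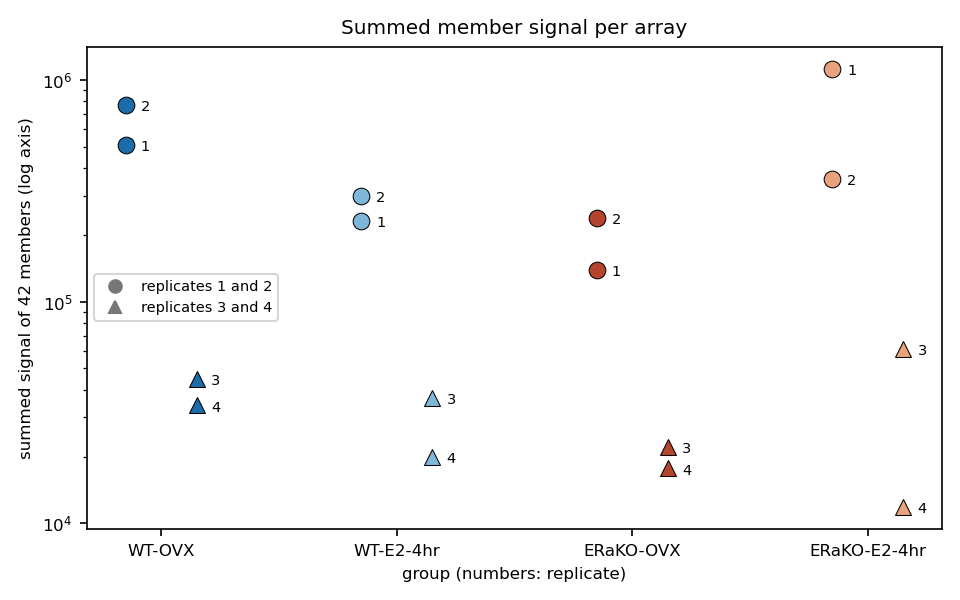
The summed signal of the 42 genes is plotted on a log axis for each of the 16 arrays by group, with circles for replicates 1 and 2 and triangles for replicates 3 and 4. Every circle lies above every triangle: the sums were 139270 to 1121900 on replicates 1 and 2 and 11816 to 61242 on replicates 3 and 4.

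Estrogen and genotype were compared in 7 ways, with 1 mean per group, and 0 of the 40 tested genes passed in any of them. In these comparisons 0 genes of all passed (0%), except the average estrogen difference, where 2 genes did (0.0157%). Members at an unadjusted p under 0.05 were 1 of 40 in estrogen against vehicle in wild type (8.69% of all genes), 1 in knockout (4.9%), 1 in knockout against wild type under vehicle (3.6%), 1 under estrogen (6.75%), 1 for the difference between the responses (7.62%), 0 for the average estrogen difference (6.15%) and 0 for the average genotype difference (3.03%). The 1 gene was Mlip each time. The median over the 40 genes was −0.80 for estrogen in wild type, with 38 lower, and 1.05 in knockout, with 37 higher. It was −1.11 for knockout against wild type under vehicle, with 38 lower, and 0.57 under estrogen, with 38 higher. The difference between the responses had a median of 1.83, with 39 higher. The averages over genotypes and over treatments were 0.10 and −0.22, and their sign turned when any of several single arrays was left out. Without ERaKO-E2-4hr replicate 1 the knockout response had a median of −0.0014 and the estrogen comparison of genotypes −0.47. Without WT-E2-4hr replicate 4 the latter was −0.0057, and without ERaKO-E2-4hr replicate 4 they were 2.22 and 1.79. Array quality weights, which gave WT-OVX replicate 2 the lowest weight, turned the median for estrogen in wild type to 1.23. They turned the genotype median to 0.15 under vehicle and −0.84 under estrogen, and the difference between responses to −1.02. Weights on replicates 1 to 4 were 0.72, 0.25, 2.20 and 3.78 in WT-OVX and 1.67, 0.58, 0.52 and 0.40 in WT-E2-4hr. They were 1.45, 1.64, 1.81 and 1.66 in ERaKO-OVX and 0.29, 0.80, 1.81 and 1.08 in ERaKO-E2-4hr. Weighting, like leaving out 1 array, thus gave the replicate sets unequal parts within groups, so these medians mix group with set. Within each set alone the wild-type estrogen median was negative (−1.23 and −0.46, given below). The genotype median under vehicle was also negative in each set (−1.63 and −0.77). Under estrogen it was 1.37 on replicates 1 and 2 and −0.12 on replicates 3 and 4, so the sets differed in sign.

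Wide spread within groups accompanied these medians. Acta1 had group means of 23971 ± 25604, 10936 ± 10496, 9067 ± 9871 and 26731 ± 32181 (SD, n = 4 each) in the order WT-OVX, WT-E2-4hr, ERaKO-OVX and ERaKO-E2-4hr. For Ckm they were 18897 ± 20862, 8318 ± 9053, 5909 ± 7346 and 22789 ± 30346. In both genes the SD was close to the mean or above it in every group. Mlip varied less: 785 ± 57.3, 512 ± 179, 495 ± 115 and 1054 ± 376. Its difference for estrogen was −0.66 ± 0.26 (limma, adjusted p = 0.479) in wild type and 1.02 ± 0.26 (limma, adjusted p = 0.941) in knockout. Between genotypes it was −0.67 ± 0.26 (limma, adjusted p = 0.952) under vehicle and 1.01 ± 0.26 (limma, adjusted p = 0.607) under estrogen, and the difference between responses was 1.68 ± 0.36 (limma, adjusted p = 0.631). Mlip kept its sign in these 5 comparisons under the other settings tried. The next smallest p-values for estrogen in wild type belonged to Tpm2 −0.48 ± 0.38, Tpm1 −1.06 ± 0.95, Casq1 −1.49 ± 1.35 and Myl1 −1.70 ± 1.56, and in knockout to Tpm2 0.63 ± 0.38, Tpm1 1.21 ± 0.95, Pygm 1.57 ± 1.43 and Ryr1 1.24 ± 1.19. For knockout against wild type they were Tpm2 −0.62 ± 0.38, Tpm1 −1.33 ± 0.95, Myl1 −1.89 ± 1.56 and Tnni2 −1.68 ± 1.46 under vehicle and Tpm2 0.49 ± 0.38, Tpm1 0.94 ± 0.95, Casq1 1.30 ± 1.35 and Pygm 1.31 ± 1.43 under estrogen. For the difference between responses they were Tpm2 1.12 ± 0.54, Tpm1 2.27 ± 1.34, Pygm 2.93 ± 2.02 and Casq1 2.67 ± 1.91. For the estrogen average the 5 genes of smallest p were Mlip 0.18 ± 0.18, Myl2 −0.90 ± 0.99, Myh1 0.97 ± 1.32, Ryr1 0.43 ± 0.84 and Des 0.47 ± 0.92, and for the genotype average Mlip 0.17 ± 0.18, Tnnc1 −0.47 ± 0.76, Tnni2 −0.63 ± 1.03, Myh7 −0.47 ± 0.78 and Mylpf −0.69 ± 1.16. None of these passed adjustment. Array quality weights turned the sign of several: Casq1, Myl1, Tpm1 and Tpm2 for estrogen in wild type, Casq1, Tpm1 and Pygm for genotype under estrogen, and Casq1 and Pygm for the difference between responses.

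With replicate set as a term in the same model the spread narrowed, and 0 of the 40 genes passed adjustment in any of the 7 comparisons. Of all genes, 5 passed for estrogen in wild type (0.0393%), 1 in knockout (0.00785%), 8 for the estrogen average (0.0628%), 1 for the genotype average (0.00785%) and 0 in the other 3 comparisons (0%). At an unadjusted p under 0.05, 13 of the 40 were lower with estrogen in wild type (7.18% of all genes), 17 were higher in knockout (3.27%), 23 were lower in knockout against wild type under vehicle (3.27%), 8 were higher under estrogen (5.54%) and 27 had a higher response in knockout (6.93%). Replicate set and the amount of muscle signal moved together on these arrays, and the 5 comparisons share control arrays. Most muscle genes also rose and fell together from array to array. Over the full muscle list, ERaKO-E2-4hr replicate 1 was the highest array for 32 genes and ERaKO-E2-4hr replicate 4 the lowest for 30. Counts of these genes, in this and the other comparisons, are thus not independent observations. The shares of all genes beside them are for scale, and enrichment was not tested. Within replicates 1 and 2, with 2 arrays against 2, the median for estrogen in wild type was −1.23, and 34 genes had both arrays lower without overlap (21.4% of all genes). In knockout it was 1.81, with 32 higher (23.4%). Knockout against wild type gave −1.63 under vehicle, with 37 lower (23.9%), and 1.37 under estrogen, with 27 higher (21.7%). In these 4 comparisons 0 genes went the other way without overlap (18.4%, 23.2%, 24.2% and 18.9% of all genes). Within replicates 3 and 4 the median for estrogen was −0.46 in wild type, with 13 lower (21.6%) and 4 higher (17.5%), and 0.28 in knockout, with 1 higher (17.4%) and 4 lower (18.5%). Knockout against wild type gave −0.77 under vehicle, with 27 lower (20.6%) and 3 higher (18.7%), and −0.12 under estrogen, with 2 higher (15%) and 5 lower (13.4%). The medians within replicates 3 and 4 were smaller, and the last had the other sign. On replicates 3 and 4 the counts without overlap for estrogen in knockout lay below the shares of all genes in both directions. For genotype under estrogen the count of higher genes lay below the share of all genes, and the count of lower genes was near it. By sign alone, 29 of the 40 genes were higher and 11 lower for estrogen in knockout. For genotype under estrogen 17 were higher and 23 lower.

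Other muscle genes were read from further lists, chosen with earlier results known, and their counts stand beside the 9.01% of all tested genes that were lower and the 8.93% that were higher. Of 13 tested genes of excitation and coupling, 8 were lower and 0 higher, with a median of −1.31: Srl −3.43, Stac3 −2.54 and Jph1 −2.39, while Atp2a2 stood at 0.30 and Fkbp1a at 0.03 without passing. Of 25 further sarcomere genes 19 were lower, median −2.21 (Myom2 −4.90, Mybph −4.85, Ankrd23 −4.76), with Pdlim7 at 0.23 and Obsl1 at 0.16. Of 22 metabolic genes 19 were lower, median −1.65 (Cox8b −5.46, Ckmt2 −4.57, Cox7a1 −3.55), and of 11 genes of muscle protein turnover 10 were lower, median −1.78 (Trim63 −3.55, Asb5 −3.42, Klhl41 −3.36). Of muscle transcription factors 3 of 10 were lower, median −0.33 (Myf6 −2.91, Vgll2 −1.40, Mef2c −0.56), and Eya4 (−0.57), Mef2a (0.13), Mef2d (0.14) and Pax3 (0.12) did not pass. Membrane and synapse genes were lower in 5 of 10 cases, median −0.53 (Itgb1bp2 −2.36, Sgca −1.30, Chrnb1 −1.24). Developmental and cardiac forms were lower in 2 of 3 cases (Actc1 −3.67, Myl4 −0.79), and Mybpc3 stood at 0.11. These medians come beside 0.03 over all genes.

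Cell types that border muscle or bone were read the same way, beside the same 9.01% lower and 8.93% higher of all genes. Satellite cell genes, of muscle's stem cells, rose in 3 of 5 tested cases, median 0.60 (Calcr 1.19, Heyl 0.80, Cdh15 0.60), with Itga7 at −0.48, and Calcr is also an osteoclast gene. Tendon genes were lower in 4 of 6 cases, median −2.17 (Thbs4 −3.88, Kera −3.67, Tnmd −2.33), and adipocyte genes in 5 of 6, median −1.42 (Scd1 −1.74, Car3 −1.62, Fabp4 −1.52). Smooth muscle genes were lower in 2 of 5 (Tagln −1.64, Acta2 −0.63), with Myl9 at 0.13, nerve genes in 1 of 5 (Pmp22 −1.09), and cardiac muscle genes split, 1 lower (Actc1) and 1 higher (Nppb 0.82) of 3. Osteoclast genes were higher in 9 of 13 cases, median 0.82 (Atp6v0d2 1.64, Ocstamp 1.59, Oscar 1.25), with Car2 at −0.26. Osteoblast and osteocyte genes were higher in 4 and lower in 1 of 10. Cartilage genes were higher in 1 and lower in 1 of 12 (Col10a1 2.94, Prg4 −5.21), with a median of 0.71 and 2 of 12 below 0. Both cartilage counts, and the osteoblast and osteocyte count of lower genes, were near the share of all genes. Erythroid, neutrophil, B cell and endothelial lists had 2 of 7, 5 of 10, 1 of 10 and 1 of 10 lower, and 0, 0, 0 and 3 higher, so that the B cell count and the endothelial count of lower genes were near the share of all genes. Summed over each list, signal on replicates 1 and 2 against replicates 3 and 4 was 10606 to 28727 against 4573 to 11833 for tendon and 28087 to 101710 against 14150 to 26294 for adipocytes. It was 4578 to 9299 against 8487 to 12471 for satellite cells and 46514 to 69998 against 72186 to 94610 for osteoclasts. Most of the satellite cell sum was Vcam1, at 3594.5 to 8215 against 7134 to 10820, which did not pass (0.44, limma adjusted p = 0.0512). Pax7, Myf5 and Chodl of that list lay under the filter, so the sum is a weak measure of satellite cells. The part of these cell types in the muscle results, and of muscle in the results of these lists, was not tested. The summed signal of the slow-fibre genes was 4422 to 20316 on replicates 1 and 2 and 744 to 1595 on replicates 3 and 4, and that of the fast-fibre genes 82385 to 678840 and 3861 to 34612.

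**Figure D5:**
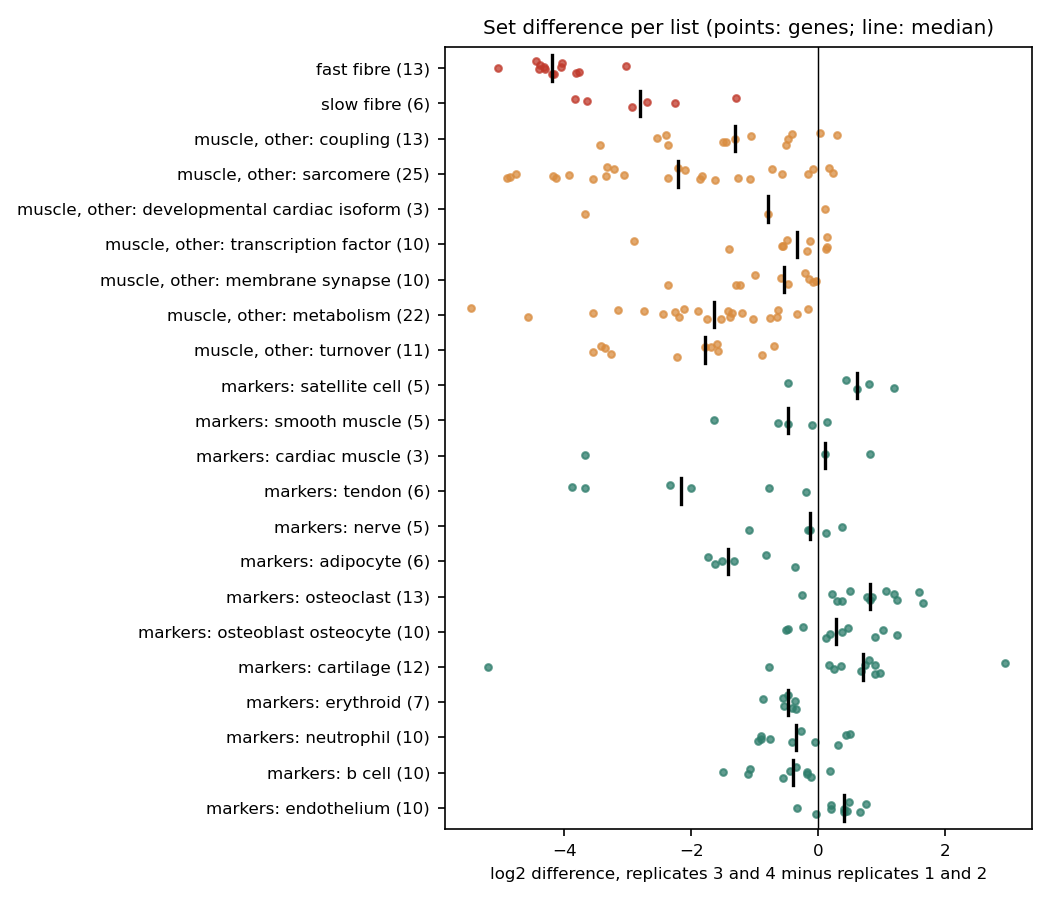
Each point is 1 tested gene of a list, placed by its log2 difference of replicates 3 and 4 minus replicates 1 and 2, with a line at the median and the number of genes in brackets. Fibre lists are red, other muscle lists orange and cell markers green. The fast-fibre list lies at a median of −4.19, the osteoclast list at 0.82.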

How the data were processed

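Femur RNA from 16 mice was hybridized to Affymetrix mouse arrays, 1 array per mouse and unpooled, per the labels. The p-values rest on the spread between arrays of different mice. In the fit with 1 mean per group this spread also holds the difference between the replicate sets. The deposited intensities, 1 linear value per probe set, came from GCOS, per the submitters' processing notes, which give no version. Their trimmed mean was already equal on all arrays, so no further normalization was applied. Of 45101 probe sets 64 were controls, 34945 had 1 symbol in the platform annotation, 932 had several and 9160 had none. Those with several were not used, and 34741 matched RefSeq genes by Entrez identifier. Detection calls were not used here, so background is judged by the signal alone, and the number of arrays limits precision.

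Signals were taken as log2(signal + 16), which shrinks folds of low genes. For each of 18193 genes the probe set with the highest mean log2 value was used, and the lowest 30% of genes by mean were left out, leaving 12735 with a mean signal of at least 109.1. Models used limma 3.58.1 (R 4.3.3) with a variance trend: 1 mean per group over 16 arrays (12 residual degrees of freedom), group plus replicate set (11), and 8 means (8). Tests were two-sided, with Benjamini-Hochberg adjustment over all tested genes and a threshold of 0.05. The fits were tested on simulated data with noise of the size seen within group and replicate set. For the group fit no set difference was simulated, so that fit was not tested under the one seen here. RefSeq promoter sequences were cut to the 250 bases before the start.

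The members, gene lists, replicate split and tests were chosen with earlier results of these data known. Named genes were a preset list of 21, the 5 members of smallest p per comparison, the extremes of the replicate difference, and the leading and opposite genes of each other list. Arrays that share a number across groups correlated in their deviations from group means at 0.178 to 0.593 (24 pairs, all over 0.1), so the number was used as a block in an alternative fit. Arrays of another number within the same set correlated at 0.0307 to 0.604, and arrays of different sets at −0.654 to −0.0846. Other alternatives were pseudocounts of 1 and 64, quantile normalization, the mean of probe sets, no filter or a 50% filter, array weights, each array left out, and subsets of arrays. Leaving out the 3 arrays of highest spike-in signal was chosen after seeing the data.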

Additional observations from a re-analysis of the deposited data

How the results depend on the processing

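The set difference called 39 of 40 tested genes lower under both other pseudocounts, quantile normalization, the mean of probe sets, array weights, a random replicate block, without the 3 arrays of highest spike-in signal and with each array left out, with a median of −3.90 to −3.43 over the left-out arrays. Without a filter 41 of 42 were called. In the main fit 9.01% of all tested genes were lower, and the shares of all genes under these other settings are not given here. In the 7 group comparisons 0 members passed with the replicate block, as without it, and it changed no call among the members. Among all genes the estrogen average then had 3 calls in place of 2. With array weights the median difference between responses was −1.02, and signs turned for estrogen in wild type (Casq1 0.80, Myl1 0.67, Tpm1 0.44, Tpm2 0.0033), genotype under estrogen (Casq1 −0.43, Tpm1 −0.24, Pygm −0.38) and the difference between responses (Casq1 −0.56, Pygm −0.099). The estrogen average of Des was −0.089 without the high spike-in arrays, and the genotype average of Mlip was −0.0015 within replicates 1 and 2. The set difference of Mlip was −0.020 with quantile normalization, −0.22 with the mean of probe sets, −0.13 within wild type and −0.14 within estrogen.

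Of the fast to slow ratios between sets, a pseudocount of 64 gave −1.55 for Tnnc2 to Tnnc1, −1.61 for Tnni2 to Tnni1, −1.03 for Mylpf to Myl2 and −1.56 for Myh4 to Myh7, all then past the threshold. Such a pseudocount shrinks the fall of low genes more than that of high genes. Myl1 to Myl3 lost its call with quantile normalization (−1.65), the mean of probe sets (−0.30) and without the high spike-in arrays (−2.09). The mean of probe sets gave −1.85 for Mybpc2 to Mybpc1, then past the threshold, and 0.26 for Myh4 to Myh7. Between treatments Mybpc2 to Mybpc1 turned to 0.0039 with a pseudocount of 64 and 0.23 with the mean of probe sets, and Tnnc2 to Tnnc1 to −0.028 with quantile normalization. With each array left out the ranges between sets were −1.81 to −0.88 for Tnnc2 to Tnnc1, −1.15 to −0.31 for Mylpf to Myl2, −2.45 to −1.38 for Myl1 to Myl3 and −1.57 to −0.64 for Myh4 to Myh7. Between treatments they were −0.23 to 0.20 for Mybpc2 to Mybpc1, −0.72 to 0.35 for Myl1 to Myl3, −0.39 to 0.54 for Tnnc2 to Tnnc1 and −0.33 to 0.54 for Tnnt3 to Tnnt1. The estrogen average ranged from −0.068 to 0.92 for Des and −0.088 to 0.93 for Ryr1, the genotype average of Tnni2 from −1.19 to 0.050, and the set difference of Mlip from −0.041 to 0.15. The causes of these changes were not tested.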
